A study of Cucumis sativus with 25 samples.

Results

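The transcripts of cucumber shoot tips grown under warm long days (HL, 16 h light at 28 °C and 8 h dark at 25 °C) were compared with those of tips grown under cool long days (LL, 16 h light at 20 °C and 8 h dark at 15 °C). The comparison takes every gene of the transcriptome table that reached an FPKM (fragments per kilobase of transcript scaled by the mapped fragments of the library) of at least 1 in at least 3 of the 12 mRNA libraries, which is 18655 of 21221 genes. Each treatment had 3 biological replicates. All plants were of the cucumber inbred line 9930 and were raised in artificial climate chambers at the same humidity. Shoot apices were dissected once the same number of true leaves had unfolded, and many apices were pooled for each library, so a library gives a level over all cells of the tip. Both treatments had the same photoperiod and differed in day and night temperature together. The same contrast under 8 h of light was available from warm short days (HS, 28 °C and 25 °C) and cool short days (LS, 20 °C and 15 °C), which share no library with HL and LL.

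The shoot apex holds the meristem, from which leaves, axillary buds and flowers arise. Ambient temperature is known to act on growth, flowering time and, in cucumber, the sex of the flowers, and plants read temperature and day length partly through shared signalling routes. Plant miRNAs are short RNAs that pair with mRNAs and lead to their cleavage or to less translation, and several conserved families act on transcription factors of the shoot apex.

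The table pairs none of its gene IDs with a gene name, and 0 of the 21221 IDs matched the RefSeq gene table for cucumber (assembly Cucumber_9930_V3). Only 2 IDs that rose and 2 that fell are therefore printed without a function, together with the IDs that the study lists as predicted miRNA targets and the gene it names as the host of a miRNA. For the same reason the tissue could not be checked by shoot meristem markers.

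The miRNAs whose predicted target genes are described below are shown by the mature sequence of a member, 5′ to 3′, with the seed (bases 2 to 8) in capitals. The study describes plant miRNAs as highly complementary to their targets, so the capitals serve only to compare the sequences. The target lists are for families, which can hold further members.

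miR156, the family that keeps plants in the juvenile phase: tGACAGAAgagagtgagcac
miR157, its close relative: tTGACAGAagatagagagcac
miR164, which acts on NAC domain transcription factors: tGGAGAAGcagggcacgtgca
miR172, which acts on APETALA2-like transcription factors: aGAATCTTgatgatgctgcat

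None of these 4 seeds was shared, although miR156 and miR157 carry the same letters shifted by 1 base.

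The 12 libraries were close in the number of genes seen. Between 19045 and 19242 genes were above 0 per library. The summed FPKM, which is already scaled by depth, lay between 911598 and 951069. The steps of the lowest values put the depth of the libraries at 0.977 to 1.10 times that of HL replicate 1. Only steps near those of HL replicate 1 were kept for this, so a large difference in depth could not have shown. LL replicate 1 stood apart in a few abundant transcripts. In it, 7 genes were over 500 FPKM and over 3 times both other LL libraries, and they held 2.32% of its FPKM, against 0.116% to 0.340% in the other 11 libraries. The highest gene of LL replicate 1, at 0.847% of its FPKM, was the highest share of any library. None of the 7 genes was called between HL and LL. By the same rule, HS replicate 3 had 1 such gene, at 0.109% of its FPKM against 0.0350% to 0.0356% in the other HS libraries. That gene was called between HL and LL. On log2(FPKM + 1), the HL libraries correlated with each other across genes at r of 0.967 to 0.974, the LL libraries at 0.972 to 0.977, and HL with LL libraries at 0.957 to 0.963. Along the first principal component (31.4% of the variance) the HL and HS libraries lay at one end and the LL and LS libraries at the other. HL replicate 2 stood apart from the other HL libraries on the second component (12.2%), at 6.2 against 30.0 and 30.1.

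In warm long-day tips, 242 genes rose and 153 fell relative to cool long-day tips by limma on log2(FPKM + 1), with a Benjamini-Hochberg adjusted p under 0.05 and a ratio of mean FPKM over 2. This was 2.12% of the genes tested, 1.3% higher and 0.82% lower. A further 299 genes were higher and 283 lower at the same adjusted p with a smaller ratio, so that 5.24% passed on the adjusted p alone, 2.9% higher and 2.34% lower. The median log2 change over all genes tested was -0.0016, and the median size of the change was 0.18. An unadjusted limma p under 0.05 was found for 3725 genes. In FPKM, which is relative to the library, most mRNAs thus lay within a small range of each other in the warm and the cool. The called changes over 2-fold were held by a small set. Without HL replicate 2, 215 genes were called higher and 154 lower. Without LL replicate 1, 207 were called higher and 92 lower, and without LL replicate 3 the number called lower was 98.

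**Figure D1:**
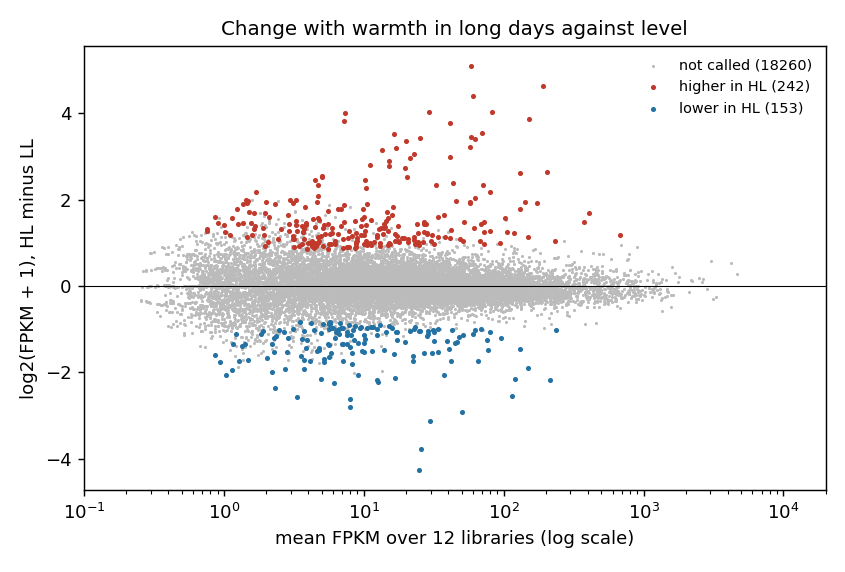
Change in log2(FPKM + 1), HL minus LL, of the 18655 genes tested (points) against their mean FPKM over the 12 libraries on a log scale, with the 242 genes called higher in HL in red and the 153 called lower in blue. The points narrow towards high levels, and the largest changes upward exceed 4 on the log2 scale.

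The gene raised in HL with the smallest p was Csa3M171870.1. It stood at 214, 243 and 185 FPKM in the HL libraries, against 12.8, 13.3 and 10.6 FPKM in the LL libraries. Every HL library was far above every LL library, with a ratio of the means of 17.5. Lack of overlap was a condition for naming this and the other genes printed without a function. The log2 change was 4.02 ± 0.17 (SE, n = 3 each, limma adjusted p = 9.52e-08). This SE and those below rest on a spread estimated over all 12 libraries. In the fit on the HL and LL libraries alone the limma adjusted p was 3.03e-05. The gene tested just before it in the ID order was raised too, at 85.1, 83.0 and 66.6 FPKM in HL against 5.61, 2.37 and 3.98 FPKM in LL, a ratio of 19.6. The gene just after it was lowered, at 31.3, 73.9 and 43.9 FPKM in HL against 105, 110 and 113 FPKM in LL.

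Csa5M266880.1 stood at 114, 123 and 100.3 FPKM in HL, against 8.22, 9.01 and 5.20 FPKM in LL. The groups were again wide apart, by a ratio of 15.0 and a log2 change of 3.77 ± 0.17 (limma adjusted p = 1.50e-07). Neither of its neighbours was called, and both lay at about the same level in warm and cool tips, with ratios of 0.913 and 0.935.

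The lowered gene with the smallest p, which was also the smallest of all genes, was Csa6M511860.1. It stood at 27.2, 27.9 and 24.5 FPKM in HL, against 150.3, 178 and 151 FPKM in LL. The HL libraries lay close together and far below the LL libraries, with a level 6.03-fold lower in HL and a log2 change of -2.55 ± 0.10 (limma adjusted p = 6.59e-08). Its neighbours in the ID order were not called, with ratios of 0.917 and 1.25.

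Csa3M009550.1 stood at 9.45, 6.13 and 7.41 FPKM in HL, against 68.7, 53.1 and 70.4 FPKM in LL. This was 8.36-fold lower in HL, with a log2 change of -2.92 ± 0.16 (limma adjusted p = 4.13e-07). All HL libraries were again below all LL libraries, as the choice of the gene required.

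**Figure D2:**
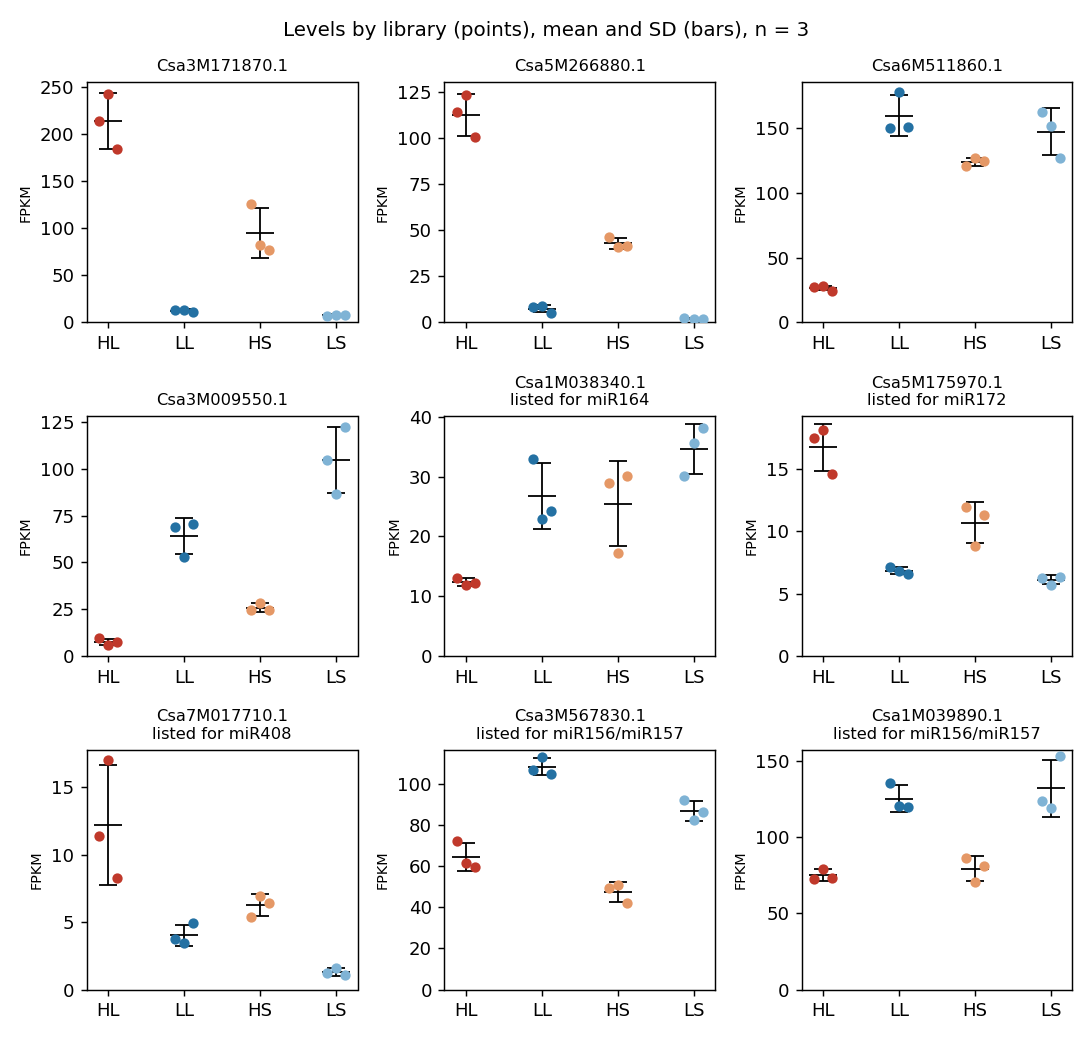
FPKM of 9 genes in each library (points, n = 3 per treatment) with mean and SD (bars), for HL, LL, HS and LS. Csa6M511860.1 is low in HL alone, at 24.5 to 27.9 FPKM, whereas Csa3M171870.1, Csa5M266880.1 and Csa3M009550.1 part the warm from the cool treatments in both photoperiods.

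Changes of this size were the tail of each set. Among the 242 raised genes the median fold was 2.98, with 82 over 4-fold, 40 over 8-fold and 12 over 16-fold. Among the 153 lowered genes the median fold was 2.82, with 37 over 4-fold, 12 over 8-fold and 3 over 16-fold. The raised genes had a median level of 15.2 FPKM in HL and 4.49 FPKM in LL. The lowered genes had a median level of 3.68 FPKM in HL and 10.4 FPKM in LL. No fold was taken for 4 raised genes that were listed at 0 in every LL library, nor for 7 lowered genes that were listed at 0 in every HL library. More widely, 28 raised genes stayed under 1 FPKM in every LL library and 18 lowered genes stayed under 1 FPKM in every HL library. The HL and LL libraries did not overlap for 241 of the 242 raised and 151 of the 153 lowered genes, beside 12.7% of all genes tested with HL above LL and 12.1% with HL below, 24.8% in all.

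The share of genes called differed with the level. Of the 2935 genes with a mean between 1 and 5 FPKM, 3.85% were called, and of the 5433 genes between 5 and 20 FPKM, 2.91%. The share was 1.26% of the 7704 genes between 20 and 100 FPKM and 1.14% of the 1846 genes above that. Among the 737 genes with a mean under 1 FPKM, 6 were called, and since values are taken on log2(FPKM + 1) the change of such genes is understated. Only 4 genes passed the level filter through the 3 HL libraries alone and 1 through the 3 LL libraries alone. At the edge of the filter, 296 genes had exactly 3 libraries at 1 FPKM or more, with a median of their mean levels of 0.591 FPKM. The 370 genes left out with exactly 2 such libraries had a median of 0.468 FPKM.

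Taken as a sum, the raised genes made up 1.17% ± 0.08 of the FPKM of the HL libraries and 0.344% ± 0.027 of the LL libraries (SD, n = 3 each), as their choice fixes. In the short-day libraries, which entered that contrast only through the shared spread, they made up 1.20% ± 0.11 in HS and 0.329% ± 0.029 in LS. The 10 raised genes with the largest gaps held 37.8% of the summed difference. The lowered genes made up 0.158% ± 0.016 in HL and 0.444% ± 0.027 in LL. In short days they made up 0.267% ± 0.004 in HS and 0.538% ± 0.032 in LS. The raised genes thus summed to about the same share in HL and HS, while the lowered genes, chosen for low HL values, summed to less in HL than in HS. Fewer cells of a type and less RNA per cell cannot be told apart in such pooled tips.

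**Figure D3:**
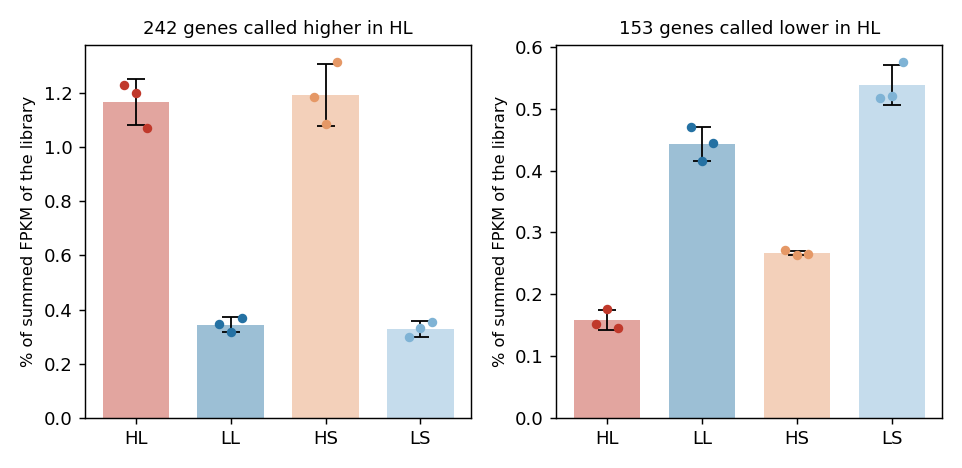
Share of the summed FPKM of each library (points) held by the 242 genes called higher and the 153 called lower in HL, for HL, LL, HS and LS, with the mean (bars from 0) and SD (n = 3). The raised set takes 1.17% in HL and 1.20% in HS, and the lowered set 0.158% in HL and 0.267% in HS.

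The raised genes were often neighbours. The IDs number the genes along each chromosome, with the chromosome as the digit after Csa. Of the 240 raised genes that the IDs place on a chromosome, 59 (24.6%) stood next to another raised gene in the order of the genes tested, whereas 2.53% of all 18572 placed genes stood next to a raised gene. Of the 153 lowered genes, 14 (9.15%) stood next to another lowered gene, beside 1.63% of all genes. The 73 genes formed 32 runs, of which 25 were runs of raised genes. The 7 runs of lowered genes were pairs, and the runs of 3 genes (5 of them) and of 4 genes (2 of them) were all of raised genes. In 26 of the 32 runs, the ratios of the members lay within 2-fold of each other. All members were chosen for a ratio over 2 in the same direction, which limits how far they can differ. No such share was taken for called genes that are not neighbours. A pair on chromosome 4 had identical values, so its likeness was fixed. Opposite calls stood side by side in 6 pairs. The count of 14 lowered genes was not stable, with 6 without HL replicate 3 or LL replicate 1, 4 without LL replicate 2 and 8 without LL replicate 3. It was also 4 in the fit on the HL and LL libraries alone.

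A run of 4 raised genes on chromosome 4 was fairly even. Its members averaged 139 ± 23.1, 137 ± 15.5, 36.2 ± 7.60 and 24.2 ± 5.07 FPKM in HL, against 14.0 ± 1.86, 11.8 ± 2.43, 3.43 ± 2.40 and 2.76 ± 1.47 FPKM in LL (SD, n = 3 each). The levels differed between the members, and the ratios of HL to LL ran only between 8.77 and 11.6. The run of 4 on chromosome 2 was less even, with ratios between 5.95 and 45.6, and its highest ratio came from a gene listed at 0 in 2 of the 3 LL libraries. In short days, 55 of the 59 raised genes in runs were called higher, where 172 of all 242 raised genes and 3.1% of all genes tested were. Of the 14 lowered genes in runs, 6 were called lower in short days, where 60 of all 153 lowered genes and 1.2% of all genes were. Whether genes in runs differ from the other called genes in this was not tested. Near-identical copies can share reads when fragments are assigned to genes. Values identical to those of another gene in all 12 libraries were found for 17 genes tested and for 2 of the 73 genes in runs. Sharing of reads among copies that differ in value was not tested.

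Raised and lowered genes came from every chromosome. The share of raised genes ran between 0.993% of the 3928 genes of chromosome 3 and 1.93% of the 1861 genes of chromosome 7. The share of lowered genes ran between 0.616% of the 2436 genes of chromosome 5 and 1.14% of the 2714 genes of chromosome 1. Chromosome 1 was the only numbered chromosome with more lowered (31) than raised (29) genes.

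A gene that the study names, Csa1M044860.1 (written there with G in place of M), is the alcohol dehydrogenase-like gene whose intron gives rise to a cucumber miRNA precursor. Its level was 12.3, 7.49 and 9.39 FPKM in HL, against 11.2, 10.2 and 13.3 FPKM in LL. The groups overlapped, and the log2 change of -0.25 ± 0.18 did not pass (limma adjusted p = 0.504). The 4 genes that follow it in the ID order were all higher in HL at a limma adjusted p of at most 0.0089, beside 2.9% of all genes. Their ratios of HL to LL were 1.37, 1.97, 3.28 and 2.59. The last pair were called higher, as were 1.3% of all genes. Whether this stretch differs from others was not tested. The 4 genes tested before the host gene had ratios of 1.10, 0.555, 0.931 and 0.931, and the fifth after it had 0.731. None of these passed (limma adjusted p between 0.218 and 0.952). The pair at 0.931 had identical values in HL and LL, from 0.56 to 1.02 FPKM. The third gene after the host gene was an abundant mRNA, at 466, 626 and 463 FPKM in HL, against 167, 138 and 168 FPKM in LL.

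The predicted targets of conserved miRNAs were called about as rarely as genes at large. The lists were taken from the study's predictions, as the genes that both psRobot and TargetFinder gave for a family, for the 22 conserved families whose lists were complete in the tables read. They held 218 genes tested, of which 2 were called higher and 1 lower, which is 1.38% beside 2.12% of all genes. The number called was 5 without a level filter and in the fit on the HL and LL libraries alone. Their median log2 change was -0.0061, beside -0.0016 for all genes. At the adjusted p alone, 16 of the 218 passed (7.34%), beside 5.24% of all genes. The known targets of each family are given below as background. Which listed genes encode such proteins was not checked here, since the IDs of the transcriptome table carry no names. The study annotates the targets it found by degradome sequencing, and that annotation was not used here.

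miR156 and miR157 are known for holding down SBP-box genes, the transcription factors that promote the adult phase and flowering. Of the 32 genes tested from the miR156/miR157 list, 5 were lower in HL at the adjusted p and 0 were higher, beside 2.34% of all genes that were lower at that p. None of these long-day changes was over 2-fold, and the median log2 change of the list was -0.053. The number was 3 of 32 in a fit without HL replicate 2, without LL replicate 1 or without LL replicate 2. The strongest, Csa3M567830.1, whose product is not named here, stood at 72.2, 61.6 and 59.8 FPKM in HL, against 107, 113 and 105 FPKM in LL. All HL libraries were below all LL libraries, and the log2 change was -0.74 ± 0.10 (limma adjusted p = 0.00064). Csa1M039890.1 stood at 72.5, 79.4 and 73.4 FPKM in HL, against 136, 121 and 120 FPKM in LL. This was a 1.67-fold lower level, with a log2 change of -0.73 ± 0.11 (limma adjusted p = 0.0017). Both genes were lower in the warm short days as well, by log2 changes of -0.86 and -0.72, HS minus LS.

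miR164 is known for its action on NAC domain genes that set organ boundaries. Of the 14 genes tested from its list, 2 were lower at the adjusted p and 1 of them was called, beside 2.34% and 0.82% of all genes. Csa1M038340.1 stood at 13.1, 11.8 and 12.3 FPKM in HL, against 33.0, 23.0 and 24.2 FPKM in LL. The HL libraries were all below the LL libraries, at a 2.16-fold lower mean and a log2 change of -1.04 ± 0.19 (limma adjusted p = 0.0089). The ratio rested in part on LL replicate 1, without which the log2 change was -0.88 (adjusted p = 0.039) and the gene was no longer over 2-fold.

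miR172 is known for holding down APETALA2-like repressors of flowering. Of the 24 genes tested from its list, 3 were higher and 1 lower at the adjusted p, beside 2.9% and 2.34% of all genes. Of these, 1 was called higher, as were 1.3% of all genes. That gene, Csa5M175970.1, whose product is not named here, stood at 17.4, 18.1 and 14.6 FPKM in HL, against 7.11, 6.82 and 6.60 FPKM in LL. The log2 change was 1.17 ± 0.15 (limma adjusted p = 0.00064), with no overlap between the groups.

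miR408 is known for its action on mRNAs of copper proteins. Its list held 2 genes, of which Csa7M017710.1 was called higher, as were 1.3% of all genes. It stood at 11.4, 17.0 and 8.23 FPKM in HL, against 3.72, 3.48 and 4.93 FPKM in LL. The HL libraries spread widely but all lay above the LL libraries, with a ratio of 3.02 and a log2 change of 1.34 ± 0.24 (limma adjusted p = 0.0071). In the other 18 families no listed gene was called.

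**Figure D4:**
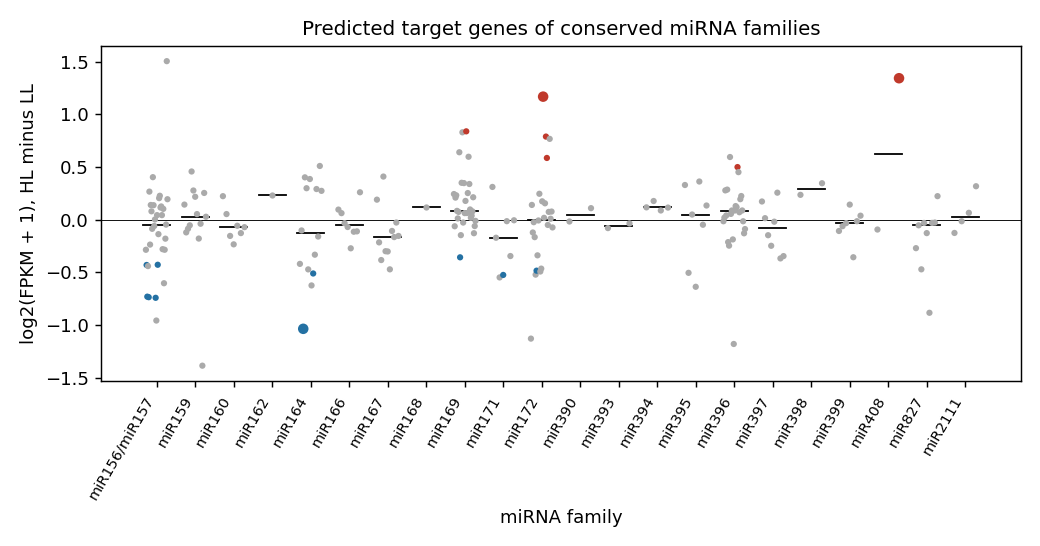
Change in log2(FPKM + 1), HL minus LL, of the genes that both prediction tools list for each of 22 conserved miRNA families, with large points for called genes, red and blue for genes higher or lower in HL at an adjusted p under 0.05, grey for the rest, and a bar at each median. The coloured points of miR156/miR157 are all below 0, and the called genes belong to miR164, miR172 and miR408.

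Most genes that changed with warmth in long days moved the same way in short days. Of the 242 genes raised in HL, 238 were also higher in HS than in LS, and 172 were called higher there. This is 71.1% of the long-day set and 29.7% of the 579 genes raised in short days, beside 3.1% of all genes tested. Of the 153 genes lowered in HL, 138 were also lower in HS than in LS, and 60 were called lower there. This is 39.2% of the long-day set and 26.8% of the 224 genes lowered in short days, beside 1.2% of all genes. In the opposite direction, 0 of the raised and 1 of the lowered genes were called. The counts of like sign stand beside a median short-day change of 0.034 over all genes tested. The raised genes had a median log2 change of 1.34 in long days and 1.21 in short days. The lowered genes had a median of -1.27 in long days and -0.75 in short days. Both sets were chosen on the long-day difference, with a spread estimated over all 12 libraries. Whether the drop is particular to the lowered genes was not tested. Across all 18655 genes the changes of the 2 photoperiods correlated at Pearson r = 0.585 and Spearman rho = 0.542, as a description over genes, which are not independent replicates.

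Long days gave fewer calls, 395 genes against 803 (4.3%) in short days, and the median size of the change over all genes was 0.18 against 0.24. The difference between the changes was itself tested as the interaction, HL minus LL less HS minus LS. It passed the adjusted p with a term over 1 in size for 9 genes (0.0482% of those tested) and for 11 genes (0.059%) at the adjusted p alone, while 1598 genes had an unadjusted p under 0.05. The smaller number of calls in long days was thus not matched by many genes with a tested difference. The interaction is less precise than either contrast, with an SE of 0.142 against 0.101 for Csa6M511860.1. Few calls therefore do not show that the changes were alike.

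**Figure D5:**
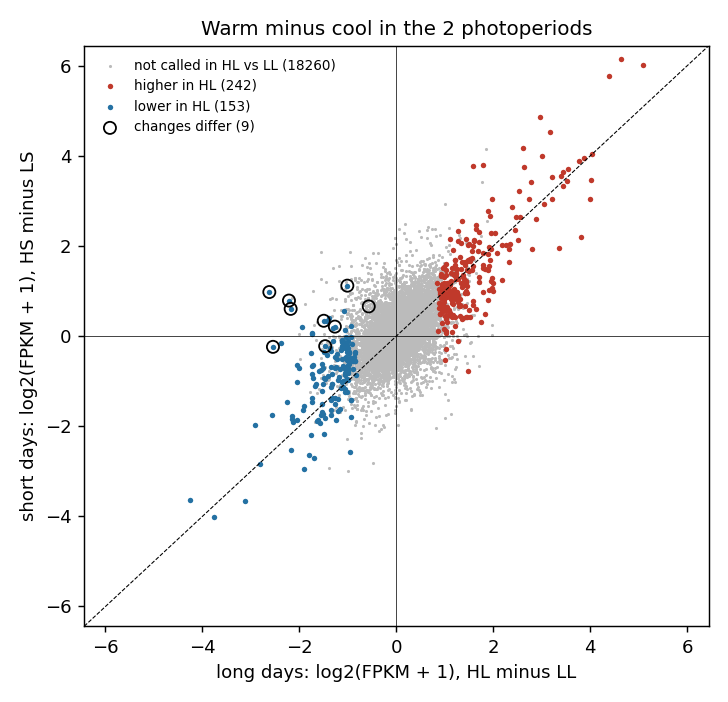
Warm minus cool change in log2(FPKM + 1) of each gene in long days (HL minus LL, horizontal) and short days (HS minus LS, vertical), with genes called higher in HL in red, genes called lower in blue, the 9 genes whose changes differ between photoperiods circled, and the line of equal change dashed. The circled genes all lie to the left of 0 and above the dashed line.

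In the main fit the 9 genes ran one way. Their interaction terms were all negative, between -3.60 and -1.23. Of the 9, 8 were called lower in HL than in LL, beside 0.82% of all genes. For 8 of the 9 the HL mean was the lowest of the 4 treatments, and 7 of the 9 were higher in HS than in LS. The term holds the HL minus LL difference, so a large negative term by itself favours these counts. They are not separate results. In Csa6M511860.1 the levels were 121, 127 and 125 FPKM in HS and 163, 152 and 127 FPKM in LS. The short-day libraries thus nearly met, with a log2 change of -0.24 (limma adjusted p = 0.122), where the long-day change was -2.55. Its interaction term was -2.31 ± 0.14 (limma adjusted p = 1.53e-05). The next gene by p averaged 2.60 FPKM in HL against 15.1 FPKM in LL, and 19.5 FPKM in HS against 12.3 FPKM in LS. The third averaged 3.14 FPKM in HL against 17.9 FPKM in LL, and 18.9 FPKM in HS against 10.8 FPKM in LS. The number of such genes moved between 3 and 37 when single libraries were left out, and 37 were called without HL replicate 2, the library that stood apart on the second component. It was 3 without HS replicate 1, 4 without HS replicate 2 or without LL replicate 2, and 5 without HL replicate 1, HS replicate 3, LL replicate 3 or LS replicate 3.

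The strongest long-day genes differed in how they behaved across photoperiods. Csa3M171870.1 reached 126, 81.8 and 77.3 FPKM in HS against 6.51, 8.05 and 8.19 FPKM in LS, and its interaction term of 0.56 did not pass (limma adjusted p = 0.558). Csa5M266880.1 reached 46.2, 41.0 and 41.2 FPKM in HS against 2.46, 1.79 and 1.70 FPKM in LS, a log2 change of 3.88 beside 3.77 in long days. Csa3M009550.1 stood at 24.6, 28.5 and 24.4 FPKM in HS against 105, 86.7 and 122 FPKM in LS, a log2 change of -1.96 beside -2.92 in long days, with an interaction that did not pass (limma adjusted p = 0.256). Warm and cool libraries of these 3 genes did not overlap in either photoperiod, which their choice fixed for long days. Of the listed miRNA targets, Csa1M038340.1 stood at 29.0, 17.3 and 30.1 FPKM in HS against 30.1, 35.7 and 38.2 FPKM in LS, and its short-day change of -0.46 did not pass (limma adjusted p = 0.120). Its interaction term of -0.57 did not pass either (limma adjusted p = 0.604). Csa7M017710.1 reached 5.36, 6.94 and 6.44 FPKM in HS against 1.20, 1.62 and 1.10 FPKM in LS and was called in short days too.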

How the data were processed

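The authors sequenced poly(A)-selected RNA of 12 libraries, 3 each of HL, LL, HS and LS. The labels' processing notes name Bowtie and RSEM with no versions; the paired-end reads were mapped to cucumber reference genes of line 9930, and the deposited values are FPKM, already scaled for depth and transcript length. Absolute read counts were not used here, so no counting interval is given. Depth was compared only through the steps of low values, kept where they lay near those of HL replicate 1, so a large difference could not show.

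Log2(FPKM + 1) was fitted in limma 3.58.1 (R 4.3.3) with a mean per treatment and a trend in the variance, over genes with FPKM of at least 1 in at least 3 of 12 libraries. All 12 mRNA libraries entered the same model, so the SE and p of HL against LL rest on a spread shared with HS and LS. Benjamini-Hochberg adjustment ran over all 18655 genes. Calls needed an adjusted p under 0.05 and a ratio of mean FPKM over 2 (interaction: a term over 1). A log2 change is on the log2(FPKM + 1) scale, and a ratio is of mean FPKM. The fit was tested on simulated data. Tables were handled in Python 3.11.15 with pandas 2.3.3, and plots drawn with matplotlib 3.10.9.

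The rule for named genes asked for annotated products, and the planned pathway lists, tissue markers and promoter motifs needed annotation as well. Since no ID matched, these could not be applied. In their place the called genes with the smallest p among those whose HL and LL libraries did not overlap are named. Named too are the called genes in the predicted target lists of conserved miRNAs and the miR156/miR157 listed genes with the smallest p. These were chosen after their values were seen. Members and lists were chosen with earlier results of these data known. The target lists and mature sequences are from the study's supplementary tables. Alternatives were another pseudocount, other level filters, scaling to equal medians, a fit on the compared treatments, no fold threshold, a noise-based probability over 0.8, a replicate block and leaving out each library.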

Additional observations from a re-analysis of the deposited data

Results flagged for a closer look

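Csa6M511860.1 stood out because its change with warmth in long days differed from that in short days by a test of the difference itself, an interaction term of -2.31 on the log2 scale (limma adjusted p = 1.53e-05). Its mean was 26.5 FPKM in HL against 160 FPKM in LL, and 124 FPKM in HS against 148 FPKM in LS. The cause was not tested.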

How the results depend on the processing

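Without the fold threshold, 977 genes were called in HL against LL (541 higher, 436 lower), 3301 in HS against LS and 11 by the interaction. With the noise-based probability the numbers were 231 (148 higher, 83 lower), of which 192 were shared with the 395 genes of the limma fit, and 363 in HS against LS; it was not run for the interaction. Without a level filter the interaction called 5 genes. Under the other alternatives that keep all libraries, the number called in HL against LL was between 296 (fit on the compared treatments only) and 412 (no filter). Scaling to equal medians gave 224 higher and 175 lower genes and moved the median log2 change of all genes to -0.033. Leaving out 1 library in turn gave 286 to 369 genes in HL against LL, 169 to 215 higher and 92 to 154 lower, 556 to 757 in HS against LS and 3 to 37 by the interaction. With the replicate number as a block, 382 genes were called in HL against LL (239 higher, 143 lower), 777 in HS against LS and 6 by the interaction. No pairing by replicate number was seen over all genes tested. Deviations of same-numbered libraries correlated at -0.014 to 0.036 between HL and LL and at 0.00089 to 0.031 between HS and LS. Other pairs of treatments were not compared, and a pairing in a small set of genes could not show. Of the listed targets of conserved miRNAs, 5 were called without a level filter or in the fit on the compared treatments, and of the miR156/miR157 list 3 were lower at the adjusted p in that fit. With the noise-based probability, 101 genes were called higher and 26 lower in both photoperiods. No log2 change of a named gene turned its sign under the alternatives run. Only another pseudocount, scaling to equal medians and leaving out libraries could alter it, since the other settings leave the log2 change the same. The depth behind each value is not known in reads, so its limit on low genes was not measured.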
